A study of Mus musculus with 35 samples.

Results

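LINE-1 elements are the long interspersed repeats that still move in the mouse genome by copying their own RNA back into DNA. Of 177904 open-chromatin regions that the authors merged over all libraries of mouse hepatocyte nuclei, 4341 (2.44%) lie in a LINE-1 copy by the detailed annotation of the deposited table, and these 4341 regions are described here. They carry 120 repeat names. ATAC-seq cuts accessible DNA with a transposase, so the number of tags in a region measures how open it is. Each value below is the number of tags in 400 bp, scaled to 10 M tags per library.

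All animals carried the CAG-Sun1/sfGFP and Albumin-Cre alleles, a tag on the nuclear envelope of cells with albumin promoter activity by which hepatocyte nuclei were pulled from the liver. Livers were taken at ZT 9. The 20 BALB/c libraries were C26 PBS, C26 pre-cachexia and C26 cachexia, and NC26 PBS and NC26 weight-stable cancer, with 4 libraries each. The 15 C57BL/6N libraries were MC38 PBS and MC38 weight-stable cancer with 4 each, 8025 PBS with 3 (replicates 1, 2 and 4) and 8025 cachexia with 4. C26 and 8025 tumor cells cause cachexia, taken as more than 10% loss of body weight, NC26 and MC38 tumors leave weight stable, and PBS animals had no tumor cells. Each library came from its own animal, and neither sex nor age of the animals is stated in the labels used here. Library series is the split of library numbers below and above 6000. All C26 libraries are below, all 8025 libraries above, and NC26 and MC38 have both. What the numbers stand for is not stated.

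Mouse LINE-1 copies are layered by age. The L1Md families are the youngest and hold the copies that can still move, the Lx and L1_Mus, L1_Mur and L1_Rod names mark older rodent copies, and the L1M, L1P and HAL1 names mark remnants shared with other mammals. In most adult tissues LINE-1 promoters are kept silent by DNA methylation and by histone methylation that TRIM28 and SETDB1 direct, while fragments of old copies can serve as enhancers. The Lx and L1VL class was the largest here, with 1958 regions, followed by 1767 in L1M, L1P and HAL1 copies and 500 in L1_Mus, L1_Mur, L1_Mm and L1_Rod copies. The youngest families were rare: 93 regions lay in L1Md copies other than L1Md_T, L1Md_A and L1Md_Gf, and 13 in those 3 families. How reads with several matches were placed is not stated in the labels used here. Its part in these low counts was not tested. A further 10 were in MusHAL1 copies. By single name, Lx8 led with 535 regions, ahead of Lx7 with 227, Lx9 with 196, Lx5c with 159 and L1_Mus3 with 150.

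The sequences shown are of LINE-1 regions at a start site of a predicted transcript, since these show the DNA of the members themselves. RefSeq promoter windows (GRCm38.p6, the build the mm10 coordinates name), each of 300 bases, overlapped 19 of the 4341 regions. Of those, 5 overlapped by at least 100 bases and differed in the strain, C26 cachexia or 8025 cachexia comparison, so this choice followed the values. All 5 are on the minus strand and are written 5′ to 3′ along the transcript. Capitals mark the bases inside the deposited region.
Gm36264: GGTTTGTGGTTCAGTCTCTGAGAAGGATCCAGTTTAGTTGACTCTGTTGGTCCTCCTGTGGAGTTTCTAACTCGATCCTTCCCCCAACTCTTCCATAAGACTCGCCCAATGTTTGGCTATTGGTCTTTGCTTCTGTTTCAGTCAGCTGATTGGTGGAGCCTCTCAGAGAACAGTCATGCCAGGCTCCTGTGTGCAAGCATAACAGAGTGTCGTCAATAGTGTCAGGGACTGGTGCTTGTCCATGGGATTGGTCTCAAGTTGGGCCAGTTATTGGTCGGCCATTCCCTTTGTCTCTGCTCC
Gm40124: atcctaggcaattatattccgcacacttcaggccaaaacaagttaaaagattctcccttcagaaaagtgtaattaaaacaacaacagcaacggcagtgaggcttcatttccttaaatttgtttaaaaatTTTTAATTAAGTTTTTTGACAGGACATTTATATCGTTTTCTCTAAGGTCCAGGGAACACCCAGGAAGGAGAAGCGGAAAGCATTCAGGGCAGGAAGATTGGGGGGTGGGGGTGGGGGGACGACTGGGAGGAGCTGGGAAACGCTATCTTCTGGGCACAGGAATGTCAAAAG
Gm51647: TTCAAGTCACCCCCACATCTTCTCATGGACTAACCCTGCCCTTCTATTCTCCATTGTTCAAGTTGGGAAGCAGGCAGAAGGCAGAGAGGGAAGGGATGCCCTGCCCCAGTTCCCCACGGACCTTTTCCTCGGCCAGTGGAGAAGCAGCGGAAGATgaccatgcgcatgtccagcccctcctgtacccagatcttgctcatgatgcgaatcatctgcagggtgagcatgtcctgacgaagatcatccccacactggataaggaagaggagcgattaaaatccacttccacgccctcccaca
Gm37548: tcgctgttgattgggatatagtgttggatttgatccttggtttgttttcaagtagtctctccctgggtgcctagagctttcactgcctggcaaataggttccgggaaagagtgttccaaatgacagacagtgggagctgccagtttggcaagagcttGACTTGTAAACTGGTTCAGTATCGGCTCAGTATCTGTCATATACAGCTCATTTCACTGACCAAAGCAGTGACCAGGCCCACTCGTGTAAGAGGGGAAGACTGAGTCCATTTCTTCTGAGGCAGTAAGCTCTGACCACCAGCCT
Gm35865: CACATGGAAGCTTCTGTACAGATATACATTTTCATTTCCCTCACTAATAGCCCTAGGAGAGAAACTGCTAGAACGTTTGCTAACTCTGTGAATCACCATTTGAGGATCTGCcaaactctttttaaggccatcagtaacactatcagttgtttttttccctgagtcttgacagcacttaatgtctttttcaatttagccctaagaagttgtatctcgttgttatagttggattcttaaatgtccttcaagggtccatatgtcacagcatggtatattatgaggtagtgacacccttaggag

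The Gm36264 window, chr13:9076286-9076585, lies whole inside an Lx4B region near Larp4b. The 8025 PBS libraries had 111, 145 and 110 tags there and the 8025 cachexia libraries 99.1, 86.8, 44.4 and 80.6. All 4 cachexia values lay below all 3 PBS values, and the fall was -0.74 ± 0.17 (log2 ± SE, limma adjusted p = 0.0029). The C26 difference was -0.46 ± 0.16 (adjusted p = 0.0503). The other 4 windows lie in part inside their region: Gm40124 at chr3:115641677-115641976 (Lx8, near S1pr1, the sphingosine-1-phosphate receptor), Gm51647 at chr1:133093607-133093906 (L1MC5a, near Ppp1r15b), Gm37548 at chr3:50888843-50889142 (Lx8, near Noct) and Gm35865 at chr10:121705249-121705548 (L1MB7, near BC048403).

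At the S1pr1 Lx8 region the C26 PBS libraries had 86.9, 134, 119 and 107 tags and the C26 cachexia libraries 182, 153, 143 and 167. All 4 cachexia values were the higher ones (0.48 ± 0.12, limma adjusted p = 0.0035). The Noct Lx8 region was lower in BALB/c PBS than in C57BL/6N PBS (-1.71 ± 0.27), with 3.32 to 7.97 tags in BALB/c PBS and 14.99 to 31.4 in C57BL/6N PBS. The L1MC5a region rose in C26 cachexia (0.79 ± 0.26, limma adjusted p = 0.0304). The L1MB7 region was lower in BALB/c PBS (-1.01 ± 0.32, limma adjusted p = 0.0273). The median GC content of the windows on the 19 LINE-1 regions was 49.3%, with a median of 4 CpG dinucleotides, and over all 32851 windows it was 52.7% with a median of 7. Some of these windows barely touch their region (1 base near Far1, 7 near Slc25a33), so the medians also describe DNA beside the regions.

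Depth ran from 11.3 to 23.8 M tags per library, apart from NC26 tumor replicate 1 with 3.47 M. Hepatocyte markers were open, with promoter regions for 11 of 12 genes and a summed value of 1402 to 2554 per library, and no region at Ttr. Macrophage markers had a promoter region for 1 of 8 genes (summed value 0 to 8.91), endothelial markers for 1 of 7 and lymphocyte and neutrophil markers for 1 of 8. Stellate markers had 4 of 6 and cholangiocyte markers 3 of 5.

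LINE-1 regions were weaker and farther from genes than open chromatin at large. Introns held 2168 of them and intergenic DNA 2173. Promoters held 12.2% of all regions and none of the LINE-1 regions, so the sets differ by annotation from the start. Neither distance nor signal was compared at like annotation. The median distance of LINE-1 regions to a start site was 30.3 kb, against 15.1 kb over all regions. Beyond 100 kb lay 19.8% of LINE-1 regions against 10.5%. The median of the mean values over libraries was 6.49 tags, against 10.9 over all regions. The authors' peak lists of all 35 libraries held 430 LINE-1 regions (9.91%, against 17.1% of all regions), and 1220 came from the list of 1 library (28.1% against 21.6%). The X chromosome held 3.20% of them and 1.94% of all regions. They sit nearest to 2915 genes, 544 overlap another LINE-1 region and so share tags with it, and 154 are on chromosome 18 and are counted but not named.

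The highest mean value was 214 tags at an Lx8 region, chr16:78473445-78473845, near 4930478L05Rik, with 163 to 285 tags over the 35 libraries. The next was 204 tags at an Lx8 region 8.7 kb from Gsta3, chr1:21231643-21232043, near a glutathione transferase gene, with 120 to 274 tags. In both, the differences missed the threshold in all 7 comparisons. The Lx5b region near Col4a3bp, the L1M5 region near Aspg and the L1MB3 region near Pitpnm2os1 completed the leading 5, and all 3 were lower in BALB/c PBS than in C57BL/6N PBS, by 0.26, 0.43 and 0.24 on the log2 scale (limma adjusted p = 0.00719, 0.000666 and 0.025). The Pitpnm2os1 call was lost in 4 of 15 fits without 1 library.

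The summed signal of LINE-1 regions moved little between groups. Tags in LINE-1 regions made up 1.14% to 1.34% of all tags in regions. In C26 PBS the shares were between 1.21% and 1.27% (mean 1.24% ± 0.027, SD, n = 4), and in C26 cachexia between 1.15% and 1.18% (1.17% ± 0.013, n = 4). Those groups did not overlap, the only such pair among the 5 groups with tumor and their own PBS group. BALB/c PBS had 1.25% ± 0.038 (n = 8) and C57BL/6N PBS 1.20% ± 0.033 (n = 7), with overlapping values and no adjustment for library series. As a share of all tags of the library, in place of tags in regions, the C26 cachexia mean was 0.997 times the PBS mean, so the drop was seen only relative to other open regions.

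**Figure D1:**
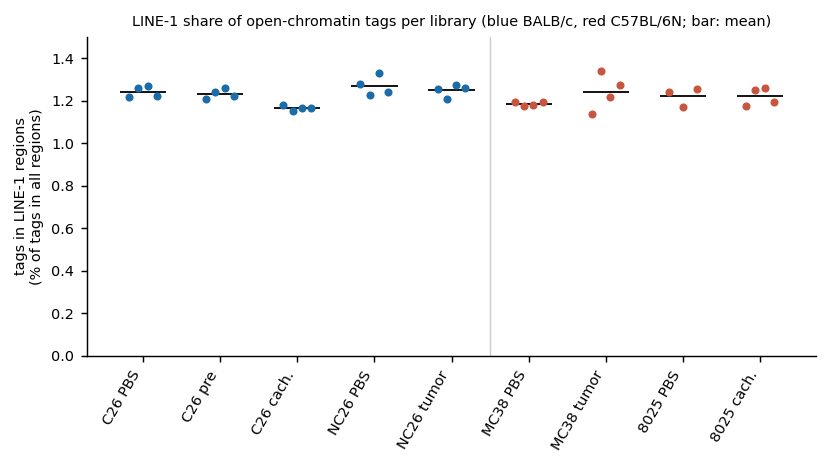
Tags in LINE-1 regions as a percent of tags in all regions, 1 point per library and a bar at the group mean. The C26 cachexia libraries sit between 1.15% and 1.18%, below all C26 PBS libraries.

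The strain comparison asked which LINE-1 regions differ between BALB/c and C57BL/6N hepatocytes in animals without a tumor. Of 4290 LINE-1 regions that passed the filter on low values (51 did not), 377 were higher in BALB/c PBS (8.79%, against 6.42% of all regions tested) and 244 were lower (5.69%, against 7.04%), by limma at an adjusted p of 0.05. The median difference over tested LINE-1 regions was 0.10 on the log2 scale, and 0.02 over all regions. Those with a mean at or below the LINE-1 median had 175 higher and 87 lower calls, and the rest 202 and 157. Weak regions of any kind also had more higher than lower calls (3172 and 2180 of 56780), while regions of any kind above that level had 8199 and 10298 of 120471. LINE-1 regions thus had more higher than lower calls on both sides of their median. Repeats of the ERVK and ERV1 families had 495 higher and 514 lower of 5161.

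A handful of regions had many tags in 1 strain and few or none in the other. At an Lx5 region 210 kb from Gm5114, chr7:39202859-39203259, intergenic, the 8 BALB/c PBS libraries had 46.7 to 75.2 tags with a median of 60.5, and 4 of the 7 C57BL/6N PBS libraries had 0 and none more than 0.67. The difference was 5.67 ± 0.19 on the log2 scale (limma adjusted p = 4.07e-27), and 6 read ends in all were found in the 7 C57BL/6N libraries. The split held in every group: BALB/c libraries of every group had 46.7 to 84.9 tags and C57BL/6N libraries 0 to 0.67.

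The Lx8 region near Suds3, a gene for a subunit of the Sin3 histone deacetylase complex, chr5:117085325-117085725, had 71.3 to 139 tags with a median of 91.4 in BALB/c PBS and 1.35 to 3.53 with a median of 2.60 in C57BL/6N PBS (4.92 ± 0.22, limma adjusted p = 9.44e-22). The L1MB5 region near Ap1m1, a clathrin adaptor subunit gene, had 25.2 to 44.9 against 1.30 to 3.88 tags (3.61 ± 0.20). At the Lx10 region near 4930480G23Rik the ranges were 12.3 to 43.98 and 0 to 3.6. In all 3 of them the groups were far apart, with no C57BL/6N PBS value above 4 tags.

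The L1MA8 region near Mir7688, chr10:93421965-93422365, combined a strain difference with a response to cachexia. BALB/c PBS libraries had 19.0 to 55.8 tags with a median of 42.4, and C57BL/6N PBS libraries 1.26 to 3.6 with a median of 2.47 (3.63 ± 0.28, limma adjusted p = 2.65e-12). In C26 cachexia it stood at 76.8, 112, 89.1 and 98.4 tags, and in 8025 cachexia at 12.4, 24.2, 51.99 and 9.6. So it rose from both starting levels (1.47, adjusted p = 0.0027, and 2.40, adjusted p = 2.34e-05, by limma), and all 4 cachectic C57BL/6N libraries were within or below the BALB/c PBS range.

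Other regions higher in BALB/c were at Mir1943 (L1MD2, log2 difference 2.91), Gm30551 (Lx8, 2.89) and Aunip (Lx7, 2.29). Gm30551 was the least even of them, with 0.34 to 24.7 tags in C57BL/6N PBS, and its difference between C26 PBS and 8025 PBS alone missed the threshold (1.80, limma adjusted p = 0.275).

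On the other side stood regions with many tags in C57BL/6N and few in BALB/c. With reads aligned to mm10, a copy missing or diverged in BALB/c and a closed one cannot be told apart. The L1_Mur1 region near Rnf152, a ubiquitin ligase gene, chr1:105413418-105413818, had 39.2 to 63.0 tags with a median of 51.9 in C57BL/6N PBS and 0.72 to 4.98 with a median of 2.81 in BALB/c PBS (-4.00 ± 0.25, limma adjusted p = 3.48e-17). In 8025 cachexia its values were 116, 93.8, 81.5 and 98.6 tags, above all PBS values, yet the change of 0.75 missed the threshold (adjusted p = 0.15).

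The Lx6 region near Mex3b, an RNA-binding protein gene, chr7:82860586-82860986, had 25.1 to 83.5 tags against 1.28 to 9.13 (-3.41 ± 0.27, limma adjusted p = 1.33e-13). At the Lx8 region near Gch1, the gene of the entry enzyme of tetrahydrobiopterin synthesis, chr14:47223113-47223513, the ranges were 34.4 to 65.3 and 1.66 to 6.48 (-2.93 ± 0.24, limma adjusted p = 2.42e-13). The groups did not overlap in either, as the naming rule required. The Gm17746 (Lx8), Aldh1a3 (L1MD) and Aqp11 (L1MB3) regions were lower in BALB/c by 2.31, 2.21 and 1.94 on the log2 scale. An Lx8 region near Gsap, described below for tumor-bearing animals, was also lower in BALB/c PBS (-2.32, limma adjusted p = 3.48e-06). Aldh1a3 makes retinoic acid from retinaldehyde, and Aqp11 is an intracellular aquaporin.

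**Figure D2:**
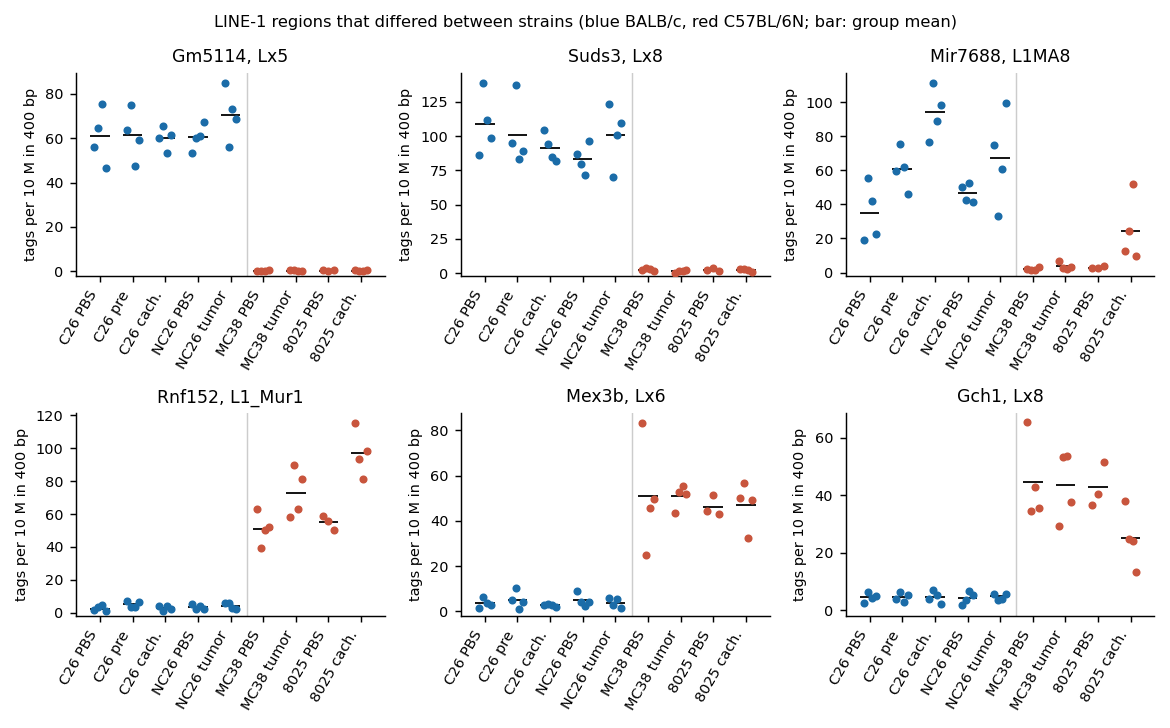
Tags per 10 M in 400 bp for 6 LINE-1 regions named for a strain difference, 1 point per library and a bar at the group mean. Gm5114 stays at 46.7 to 84.9 in BALB/c and at 0 to 0.67 in C57BL/6N, and Mir7688 rises to 12.4, 24.2, 51.99 and 9.6 in 8025 cachexia.

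Read in the tumor-bearing NC26 and MC38 libraries, which were in the model but not among the PBS groups compared, most differences kept their sign. Of the 377 LINE-1 regions higher in BALB/c PBS, 331 (87.8%) were higher in NC26 than in MC38 tumor-bearing libraries and 144 were called so, with 4 called the other way. Of the 244 lower, 232 (95.1%) were lower and 139 called so, with none called the other way. Over all regions tested these shares were 88.8% and 93.7%. The tumor-bearing libraries taken alone gave 251 of 4290 LINE-1 regions higher in NC26 than in MC38 and 327 lower. Over all regions tested, 4.89% were higher and 7.25% lower, and among LINE-1 regions the majority of higher calls seen in PBS did not hold there. The 242 regions higher and 171 lower in NC26 PBS than in MC38 PBS were higher in C26 PBS than in 8025 PBS in 224 cases and lower in 161. All these contrasts come from 1 model whose series term rests on the NC26 and MC38 libraries, so they are not independent. C26 PBS and 8025 PBS differ in library series as well as in strain, and only that term sets series and strain apart there.

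Complete absence of signal was rare. No read end fell on 6 LINE-1 regions in any of the 8 BALB/c PBS libraries, 5 of them at 0 in all 20 BALB/c libraries, and on 1 region in any of the 7 C57BL/6N PBS libraries, with none at 0 in all 15. Over all 177904 regions these counts were 170, 141, 10 and 4. A peak was listed in at least 10 BALB/c and no C57BL/6N library for 38 LINE-1 regions, and in at least 8 C57BL/6N and no BALB/c library for 32. Over all regions they were 987 and 1267. Reads of both strains were aligned to mm10, the genome of C57BL/6J, so a copy that is missing or diverged in BALB/c and one that is closed there cannot be told apart. Summed stellate marker values were 83.5 to 145 in BALB/c PBS and 116 to 187 in C57BL/6N PBS, with 2 of 6 markers lacking a promoter region. Cholangiocyte marker sums were 65.2 to 116 in BALB/c PBS and 115 to 152 in C57BL/6N PBS, ranges that barely overlap. The part of either in the strain calls was not tested.

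More LINE-1 regions fell than rose in C26 cachexia. Against C26 PBS, 266 LINE-1 regions rose (6.20%, against 6.91% of all regions tested) and 536 fell (12.5%, against 7.13%), by limma at an adjusted p of 0.05. The median difference was -0.11 over tested LINE-1 regions and -0.01 over all regions. ERVK and ERV1 regions had 284 higher and 567 lower of 5161, a split much like it, and L2 and MIR regions 186 and 215 of 2281. In 8025 cachexia 284 LINE-1 regions rose (6.62%, against 6.99%) and 317 fell (7.39%, against 5.38%), and which side was the larger turned with the scaling, since RLE factors gave 300 and 288 and library totals 262 and 213. Without 8025 PBS replicate 2 the 8025 count was 345 in all.

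**Figure D3:**
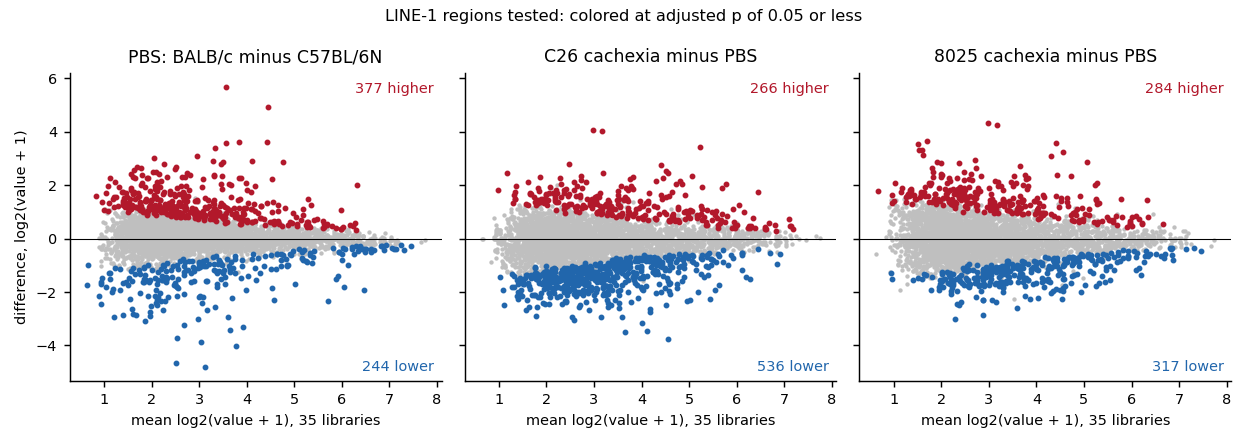
Difference on the log2(value + 1) scale against the mean log2 value over 35 libraries for the 4290 tested LINE-1 regions, in color where the adjusted p is 0.05 or less. The C26 cachexia panel has 536 lower and 266 higher calls, and the strain panel the largest single differences, up to 5.67.

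By class, falls were counted over the regions tested, beside 7.13% of all regions in C26 cachexia and 5.38% in 8025 cachexia. In C26 cachexia 13 rose and 97 fell of 492 in L1_Mus, L1_Mur, L1_Mm and L1_Rod copies, 119 and 238 of 1940 in Lx and L1VL copies, and 131 and 179 of 1750 in L1M, L1P and HAL1 copies. The small classes had 1 and 4 of 12 in L1Md_T, L1Md_A and L1Md_Gf copies, 1 and 15 of 86 in other L1Md copies, and 1 and 3 of 10 in MusHAL1 copies. In 8025 cachexia the counts in the same order were 23 and 58, 120 and 144, 137 and 103, 1 and 1, 3 and 10, and 0 and 1. L1_Mus3 alone had 5 and 35 of 148 tested in C26 cachexia and 7 and 25 in 8025 cachexia. None of the 38 L1_Mus2 regions rose in either cohort, while 10 fell in C26 cachexia and 8 in 8025 cachexia. Lx8, the largest name, was balanced, with 49 and 40 in C26 cachexia and 40 and 30 in 8025 cachexia. Young copies of 1 family can be near-identical in sequence, and the placement of reads with several matches is not stated in the labels used here. The difference between classes was not tested.

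**Figure D4:**
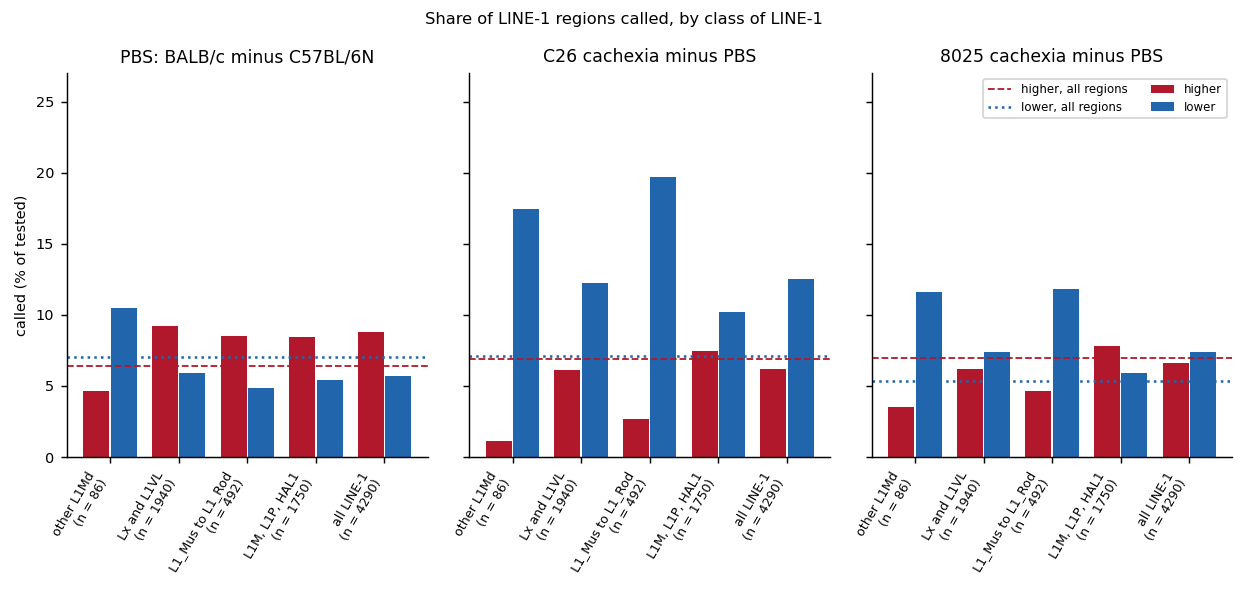
Percent of tested LINE-1 regions called higher (red) or lower (blue), by class with at least 50 regions, in the strain and both cachexia comparisons. The dashed and dotted lines mark the share of all regions tested, and the L1_Mus to L1_Rod class has 97 lower calls of 492 in C26 cachexia.

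Several LINE-1 regions opened in both cachexia models. The L1MB5 region 9.0 kb from Serpina3n, which encodes an acute-phase protease inhibitor, chr12:104415527-104415927, had 13.9, 10.5, 5.57 and 11.9 tags in C26 PBS and 90.3, 59.7, 83.6 and 76.5 in C26 cachexia (2.77 ± 0.31, limma adjusted p = 2.34e-08). In 8025 PBS it had 8.10, 9.17 and 12.6 and in 8025 cachexia 97, 146, 153 and 142 (3.57 ± 0.33, limma adjusted p = 1.69e-09). Every cachexia library was higher than every other library, and the NC26 and MC38 tumor libraries reached 28.8 at most.

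The Lx2B region near Alx1, a homeobox gene of the developing face 249 kb away, chr10:102779224-102779624, had 7.26 to 14.0 tags in C26 PBS and 52.2 to 78.2 in C26 cachexia (2.44 ± 0.45, limma adjusted p = 0.00041). It had 3.53 to 27.5 in 8025 PBS and 86.3 to 139 in 8025 cachexia (3.25 ± 0.49, limma adjusted p = 4.46e-05). It had already risen in C26 pre-cachexia, with 51.5, 45.1, 36.8 and 26.4 tags (1.78, limma adjusted p = 0.048).

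At the Lx5c region near Fgg, the fibrinogen gamma chain gene, chr3:83016202-83016602, the C26 values were 13.2 to 38.03 in PBS and 90.2 to 173 in cachexia (2.36 ± 0.39, limma adjusted p = 0.000101). The 8025 values were 8.81 to 22.6 and 73.0 to 142 (2.87 ± 0.42, limma adjusted p = 2.9e-05). A neighboring pair of overlapping Lx5c regions assigned to Fga, the fibrinogen alpha chain gene, also rose in both cohorts.

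The Lx8 region near Slc16a7, the gene of the lactate and pyruvate transporter MCT2, chr10:125164652-125165052, had the largest rise named in C26 cachexia. It had 6.83, 13.4, 15.5 and 7.97 tags in C26 PBS, 128, 51.5, 58.9 and 44.8 in pre-cachexia, and 128, 109, 137 and 125 in cachexia. Neither pre-cachexia nor cachexia values overlapped PBS, a condition of its naming in both comparisons. The differences were 2.44 ± 0.36 in pre-cachexia (limma adjusted p = 0.000397) and 3.42 ± 0.36 in cachexia (limma adjusted p = 1.69e-07). In 8025 it went from 18.7, 21.9 and 46.3 tags to 130, 104, 86.1 and 150 (2.01, limma adjusted p = 0.0008). The NC26 tumor libraries had 46.05, 7.71, 62.2 and 56.3 tags against 9.96 to 17.8 in NC26 PBS, which overlap (1.10, limma adjusted p = 0.25).

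B4galnt3 (Lx8), a glycosyltransferase gene, and Sftpa1 (Lx8), a surfactant protein gene, were the other named rises in C26 cachexia, by 2.55 and 2.32 on the log2 scale. In 8025 cachexia the L1M5 region near Farp2, a guanine nucleotide exchange factor gene, rose from 6.69 to 11.5 tags in PBS to 64.9 to 100 (3.10 ± 0.37, limma adjusted p = 4.82e-07). The Lx8 region near Rab23, a small GTPase gene of hedgehog signaling, rose from 3.88 to 19.0 tags to 57.6 to 79.3 (2.72 ± 0.36, limma adjusted p = 6.36e-07). Both also rose in C26 cachexia, by 2.14 and 1.91.

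Of the regions that closed, the L1MA4 region near Tmem45a, chr16:56848189-56848589, in an intron, had 41.8, 59.9, 62.5 and 46.4 tags in C26 PBS and 7.39, 4.74, 1.62 and 1.37 in C26 cachexia (-3.74 ± 0.28, limma adjusted p = 3.16e-12). It also fell in 8025 cachexia (-1.96, limma adjusted p = 1.5e-05). The Lx6 region near Gm11239 and the Lx7 region near 2610024D14Rik fell by 3.47 and 2.76 in C26 cachexia and by 1.63 and 1.53 in 8025 cachexia. In each of them all 4 C26 cachexia libraries lay below all PBS libraries of that cohort, as the naming rule required.

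The Lx5b region near Stxbp6, a SNARE-binding protein gene, chr12:45205425-45205825, had 20.3, 28.7, 19.8 and 23.2 tags in C26 PBS and 4.49, 0.79, 1.94 and 2.74 in C26 cachexia (-2.95 ± 0.38, limma adjusted p = 4.1e-07). In 8025 it had 14.3, 13.4 and 11.8 and then 0, 1.94, 1.26 and 3.49 (-2.62 ± 0.41, limma adjusted p = 1.77e-05). The groups did not overlap in either cohort, a condition of its naming in both.

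The L1_Mus3 region near Pnpt1, the gene of mitochondrial polynucleotide phosphorylase, chr11:29002580-29002980, had 15.2, 25.8, 19.2 and 20.3 tags in C26 PBS and 2.64, 0, 2.27 and 2.06 in C26 cachexia (-3.16 ± 0.45, limma adjusted p = 1.25e-05). In 8025 cachexia it had 2.96, 17.2, 14.9 and 17.7 against 20.3 to 25.4 in PBS (-0.99, limma adjusted p = 0.21). The Lx8 region near Pcdh20, a protocadherin gene, likewise had 0 to 1.58 tags in C26 cachexia against 13.8 to 27.1 in PBS (-3.49 ± 0.46), and its 8025 difference was -1.08 (adjusted p = 0.17). For neither region did the difference between the C26 and 8025 effects pass the threshold (limma adjusted p = 0.24 and 0.18).

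Named falls in 8025 cachexia included the Lx2B2 region near C330004P14Rik (-2.26 ± 0.30), the L1MC4 region near Reck, an inhibitor of matrix metalloproteinases (-2.25 ± 0.34), and the L1MC region near Pik3r1, the regulatory subunit of PI3-kinase (-2.02 ± 0.29). All 3 also fell in C26 cachexia, by 1.49, 1.66 and 2.03. The L1_Mus4 region near Upp2, a liver uridine phosphorylase gene, and the L1MB3 region near 1110059E24Rik fell by 2.23 and 2.15 in 8025 cachexia (limma adjusted p = 0.0278 and 0.023), and their C26 differences of -1.58 and -1.56 missed the threshold. Leaving out 1 library ended the 8025 call at Upp2 in 4 of 7 fits (limma adjusted p up to 0.148) and at 1110059E24Rik in 3 of 7 (up to 0.185).

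**Figure D5:**
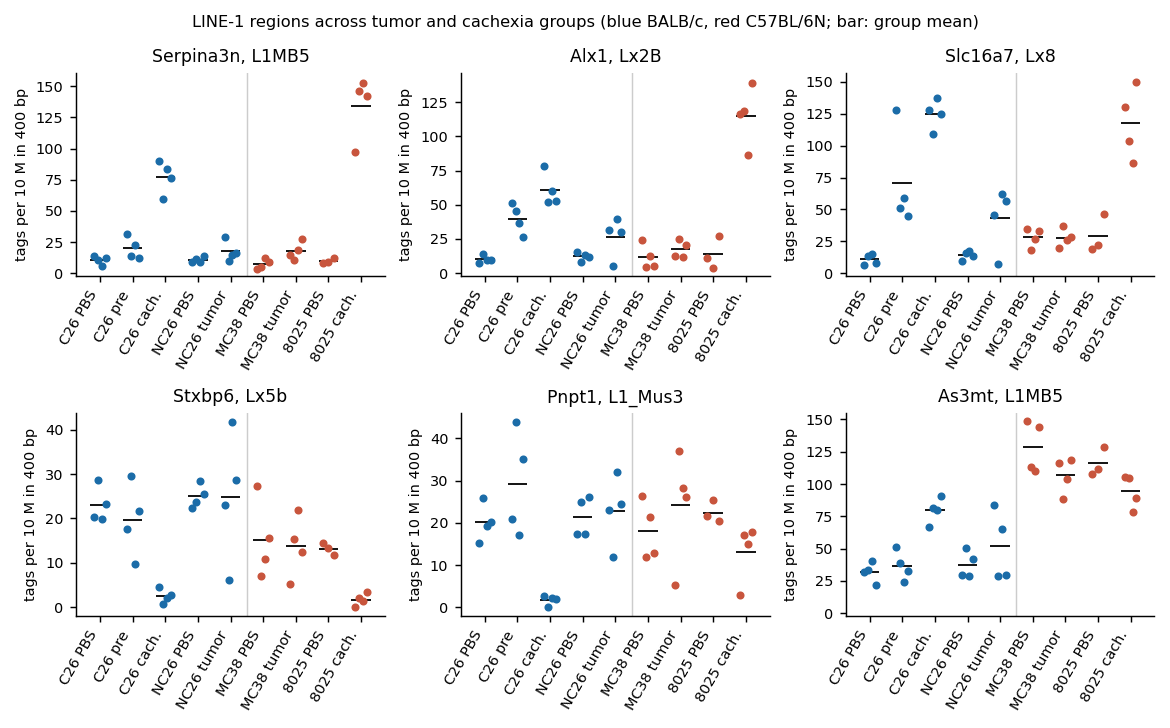
Tags per 10 M in 400 bp for 6 LINE-1 regions across all 9 groups, 1 point per library and a bar at the group mean. Serpina3n rises to 59.7 or more only in the C26 and 8025 cachexia libraries, and As3mt sits at 67.1 to 90.9 in C26 cachexia, above its BALB/c PBS values and below the C57BL/6N PBS values.

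Grouped by the nearest gene within 100 kb, LINE-1 regions at acute-phase genes rose where they changed. Of 17 such regions at 12 genes, 8 rose and none fell in C26 cachexia, and 10 rose and none fell in 8025 cachexia. Over all regions tested, 6.91% rose and 7.13% fell in C26 cachexia, and 6.99% rose and 5.38% fell in 8025 cachexia. The list's median differences were 0.94 and 1.56 on the log2 scale, against -0.01 over all regions in both. Beside Serpina3n and the fibrinogen genes, the Lx2 region near Apcs, the serum amyloid P gene, went from 3.32 ± 1.41 to 20.1 ± 4.98 tags in C26 cachexia (SD, n = 4 and 4), and the L1M5 region near Fgl1 from 24.6 ± 6.29 to 44.3 ± 3.52 (n = 4 and 4). The L1_Mur2 region near the start of Serpina3k had 66.1 ± 10.5 and 79.0 ± 6.74 tags (n = 4 and 4, limma adjusted p = 0.311).

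LINE-1 regions at drug metabolism genes mostly fell where they changed. Of 150 tested at 63 genes, 8 rose and 34 fell in C26 cachexia (all regions 6.91% and 7.13%, all LINE-1 regions 6.20% and 12.5%) and 3 rose and 27 fell in 8025 cachexia (all regions 6.99% and 5.38%, all LINE-1 regions 6.62% and 7.39%). The medians were -0.31 and -0.36. The sulfotransferase gene Sult2a8 had several: its L1_Mus3 region, chr7:14401633-14402033, went from 10.1 ± 2.58 to 2.29 ± 0.798 tags in C26 (SD, n = 4 and 4) and from 10.1 ± 1.07 to 0.662 ± 0.818 in 8025 (n = 3 and 4). The L1_Mus2 region near Cyp2d9, a male-biased cytochrome P450 gene, went from 33.9 ± 15.1 to 5.47 ± 3.35 tags in C26 cachexia (n = 4 and 4). Among the rises, 3 regions near Cyp2c70, a bile acid hydroxylase gene, rose in C26 cachexia, and their 8025 differences of 0.36, 0.29 and -0.15 missed the threshold.

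Of 33 LINE-1 regions at male-biased and growth hormone dependent genes, none rose and 8 fell in C26 cachexia, and none rose and 10 fell in 8025 cachexia. In C26 cachexia 6.91% of all regions rose and 7.13% fell, and 6.20% and 12.5% of all LINE-1 regions. In 8025 cachexia 6.99% of all regions rose and 5.38% fell, and 6.62% and 7.39% of all LINE-1 regions. A pair of overlapping L1_Mus3 regions near Hsd3b5, a steroid-metabolizing enzyme gene, fell in both cohorts, the stronger of them from 11.6 ± 1.55 to 3.54 ± 0.581 tags in C26 (n = 4 and 4). The L1VL4 region near Mup20, a major urinary protein gene, fell by 0.54 and 0.56. At lipid genes 1 of 11 rose and 3 fell in C26 cachexia, and 1 rose and 4 fell in 8025 cachexia (against the same shares of all regions and of all LINE-1 regions), including an L1MA9 region near Ppara, the fatty acid oxidation receptor, in both. The 2 regions at clock genes did not pass the threshold in any comparison.

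The promoters of genes that act on LINE-1 copies were read in the same comparisons. Regions within 1 kb of a start site were found for 29 of 30 such genes, 83 regions in all. Their median was 27.9 tags, against 10.9 over all regions, and a share over promoter regions alone is not given here. In C26 cachexia 9 of 83 rose (10.8%, against 6.91% of all regions tested) and none fell (against 7.13%). The rises were those of Setdb1, a histone H3 lysine methyltransferase (0.47), Uhrf1 (0.98), Daxx (0.33), Suv39h1 (0.26), Sirt6 (0.47), Mov10, an RNA helicase that restricts LINE-1 (0.37), Safb (0.45), Chd4 (0.31) and Yy1 (0.29). In 8025 cachexia 1 of 83 rose (1.20%, against 6.99%), a weak region of Dnmt1, the maintenance DNA methyltransferase (1.99). The strongest region of Trim28, the corepressor of repeats, had 80.7 ± 12.1 tags in C26 PBS and 89.4 ± 8.15 in C26 cachexia (SD, n = 4 and 4, limma adjusted p = 0.653). In the strain comparison 4 of 83 were lower in BALB/c PBS (4.82%, against 7.04% of all regions tested), those of Dnmt3a, Mov10, Rnaseh2a and Safb, and none higher (against 6.42%).

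Summed cholangiocyte marker values moved with cachexia, at 81.1 to 116 in C26 PBS and 117 to 136 in C26 cachexia, and at 115 to 152 in 8025 PBS and 165 to 192 in 8025 cachexia. Krt19 and Krt7 had no promoter region. Stellate sums were 122.8 to 167 in 8025 PBS and 80.8 to 116 in 8025 cachexia, and in C26 83.5 to 145 and 87.4 to 106. The sum for lymphocyte and neutrophil markers, which is 1 gene, was 1.41 to 5.14 in 8025 PBS and 6.4 to 9.89 in 8025 cachexia, and 2.56 to 9.29 and 7.2 to 11.9 in C26. The 1 endothelial marker with a region had 7.97 to 10.2 in C26 PBS and 10.3 to 14.8 in C26 cachexia, and 4.99 to 9.26 and 7.37 to 11.2 in 8025. The 1 macrophage marker with a region had 1.27 to 4.35 in C26 PBS and 2.59 to 8.91 in C26 cachexia. In 8025 its values were 1.03 to 3.53 and 3.39 to 8.73. The part of these markers in the LINE-1 results was not tested.

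Few LINE-1 regions differed before weight loss. In pre-cachexia 48 rose (1.12%, against 0.969% of all regions tested) and 23 fell (0.536%, against 0.296%), and library totals in place of TMM gave 50 and 9. Without pre-cachexia replicate 1 the count fell to 28 in all, without PBS replicate 1 to 33, and without PBS replicate 2 or 3 or pre-cachexia replicate 2 or 4 to between 44 and 47. Beside Slc16a7, the Lx8 region near Gsap, the gene of gamma-secretase activating protein, chr5:21267302-21267702, went from 9.39, 15.6, 9.29 and 7.61 tags to 78.3, 109, 20.3 and 50.8 (2.23 ± 0.38, limma adjusted p = 0.00214). The L1M5 region near Gm10445 rose by 2.17. The named falls were the Lx7 region near Lurap1l, from 15.3 ± 0.956 to 6.42 ± 1.81 tags, the L1MB2 region near Mir455, from 61.2 ± 8.06 to 30.7 ± 5.37, and the Lx8b region near Cps1, the carbamoyl phosphate synthetase gene of the urea cycle, from 10.6 ± 2.62 to 4.96 ± 1.06 (SD, n = 4 and 4 in each). The Cps1 call was lost without any 1 of the 8 libraries (limma adjusted p = 0.0539 to 0.148). Mir455 also fell in C26 cachexia, to 13.7, 26.1, 12.3 and 11.7 tags, while Cps1 did not stay low there, at 12.7, 13.4, 12.6 and 21.9 tags.

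Few LINE-1 regions passed the threshold with weight-stable tumors. In NC26 tumor-bearing animals 3 rose (0.0699%, against 0.146% of all regions tested) and 3 fell (0.0699%, against 0.0401%). By limma, 472 of 4290 LINE-1 regions had an unadjusted p under 0.05, beside 18481 of all 177251 regions tested, a similar share. The Gsap Lx8 region rose from 14.9, 22.4, 17.4 and 18.2 tags to 125, 52.7, 57.5 and 64.3 (1.80 ± 0.38, limma adjusted p = 0.045, and up to 0.232 without 1 library, with the call lost in 7 of 8 fits), and a region overlapping it rose as well. The Lx7 region near Rplp2-ps1 went from 6.64, 3.50, 9.73 and 8.49 to 25.9, 11.1, 28.6 and 21 (1.38 ± 0.28, limma adjusted p = 0.0176), and lost the call in 3 of 8 such fits. Neither rise was particular to weight-stable tumors. Gsap also rose in C26 cachexia (1.91, limma adjusted p = 0.00094), and its 8025 difference of 0.91 missed the threshold. Rplp2-ps1 rose in C26 cachexia (0.94, limma adjusted p = 0.0182) and in 8025 cachexia (1.25, limma adjusted p = 0.0038). The falls were at Ipmk (-0.92), Mir7661 (-1.54) and Gm20125 (-2.14), outside the naming rule and listed for being all there were. Gm20125 also fell in C26 cachexia (-1.87, limma adjusted p = 0.0016) and missed the threshold in 8025 cachexia. Ipmk and Mir7661 missed it in both. Without the shallow NC26 tumor replicate 1 no LINE-1 region was called, and edgeR called none. Without tumor replicate 2 or 3 there were 21 and 13 calls, and without any 1 PBS library between 1 and 3.

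In MC38 tumor-bearing animals 2 LINE-1 regions rose (0.0466%, against 0.0181% of all regions tested) and none fell (against 0.000564%), and DESeq2 gave 7 and 0. By limma, 291 of 4290 LINE-1 regions had an unadjusted p under 0.05, beside 11200 of all 177251 regions tested, a similar share. Both regions that rose were named after their values were seen. The L1MB2 region near Clvs1 went from 21.4, 11.5, 39.2 and 30.3 tags to 52.7, 37.5, 78.5 and 90.3 (1.30 ± 0.23, limma adjusted p = 0.0179). Clvs1 also rose in 8025 cachexia (1.14, limma adjusted p = 0.0012), and its C26 cachexia difference of 0.30 missed the threshold. The Lx5c region near Gpat3 went from 42.2, 19.4, 27.2 and 31.3 to 28.6, 58.7, 55.5 and 72.8 (0.74 ± 0.15, limma adjusted p = 0.0479). The groups overlapped in both. Without the library series term none was called, nor without PBS replicate 2 or 4 or tumor replicate 4, and without any other tumor library 1 was.

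The C26 and 8025 cachexia effects differed at 5 LINE-1 regions, 1 higher and 4 lower for C26 (0.0233% and 0.0932%, against 0.0276% and 0.0739% of all regions tested). Leaving out 1 library gave between 1 (without C26 PBS replicate 2 or 4, C26 cachexia replicate 3 or 8025 cachexia replicate 3 or 4) and 12 (without 8025 cachexia replicate 1). Gpat3, the gene of an acyltransferase of triglyceride synthesis, had the best supported difference (-1.37 ± 0.22, limma adjusted p = 0.00161). Its Lx5c region, chr5:100900119-100900519, was open in BALB/c before any tumor, at 110 ± 22.5 tags in C26 PBS and 118 ± 8.47 in C26 cachexia (SD, n = 4 and 4). In C57BL/6N it was low in PBS, at 26.8, 28.9 and 50.9 tags, and rose to 100, 107, 84.8 and 100 in 8025 cachexia. So the 8025 cachexia libraries came to the range of the BALB/c libraries.

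As3mt, the arsenic methyltransferase gene, showed the reverse at an L1MB5 region in an intron, chr19:46727141-46727541. BALB/c PBS libraries had 21.7 to 50.4 tags with a median of 32.4, and C57BL/6N PBS libraries 108 to 149 with a median of 113 (-1.80 ± 0.18, limma adjusted p = 1.09e-09). In C26 cachexia the region rose to 67.1, 81.9, 79.7 and 90.9 (1.28, limma adjusted p = 6.9e-05), and in 8025 cachexia it had 105, 105, 78.3 and 89.0 (-0.35, adjusted p = 0.38). The difference of the effects was 1.63 ± 0.32 (limma adjusted p = 0.0262).

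The Lx8 region near Mir6348, chr1:168497779-168498179, fell in C26 cachexia from 113 ± 20.5 to 61.7 ± 16.0 tags (SD, n = 4 and 4) and was 118 ± 14.4 and 116 ± 8.47 in 8025 PBS and cachexia (n = 3 and 4). The difference of the effects was -0.86 ± 0.18 (limma adjusted p = 0.0381). At the L1MC4 region near Dexi the effects had opposite signs, from 52.98 ± 10.6 to 36.2 ± 5.56 tags in C26 and from 42.5 ± 11.3 to 70.8 ± 11.8 in 8025 (n = 4, 4, 3 and 4). The fifth, an L1MA4 region near Pnpla8 with a mean of 3.59 tags, lies outside the naming rule and differed by -2.58 ± 0.57. Strain, tumor line and library series go together here and cannot be told apart.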

How the data were processed

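ATAC-seq of hepatocyte nuclei was available as 1 table of 177904 merged regions in 35 libraries. Reads were aligned to mm10 with BWA 0.7.5a-r405 and handled with SAMtools and HOMER, per the submitters' processing notes. Per the file headers, the authors' signal for a region is its tag count over 400 bp, brought to a library size of 10 M; duplicate and multiple-match handling is not given in the sources used here. All values (100%, tolerance 0.05) gave whole read ends, each 0.5 tag, so edgeR and DESeq2 were run on those as alternatives. LINE-1 regions are those whose detailed annotation contains LINE|L1.

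The main test was limma-trend (3.58.1, R 4.3.3) with robust variance on log2(value + 1) after TMM, fitted to the 177251 regions that passed filterByExpr (minimum count 10, total 15), with 9 groups and library series (number below or above 6000 in the column names) as terms. Benjamini-Hochberg adjustment was over all regions at 0.05; the alternatives used edgeR 4.0.16 and DESeq2 1.42.0, and tables and figures Python 3.11.15 with matplotlib 3.10.9. Differences on this scale understate changes of low values. Log2 differences are after TMM, tag values are as deposited. The design assumed this test for signal values. The fit was tested on simulated data with 100 regions changed at each fold. For strain it recovered 22% of 2-fold and 100% of 4-fold changes, with 10 false calls. For C26 cachexia it recovered 3% and 79%, with 3 false calls. Few other regions changed in the simulation, so these shares need not hold here. The changed regions were drawn only from those above a floor on mean read ends. Many LINE-1 regions lie below that floor (lower quartile 3.84 tags), and the shares do not cover them. A region without a call may still have changed, above all by less than 4-fold, and at weak regions also by more. The lowest chi-square per degree of freedom between replicates was 2.26 over 51 pairs within groups. Both read ends of a fragment can fall in the same region, so the counts are not independent. This value therefore cannot exclude that a library repeats another.

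Named regions had to pass the threshold with mean log2 at or above the median of all regions (3.48) and groups that do not overlap: the 8 largest differences each way for strain, 6 for each cachexia, 3 for the others, 1 per nearest gene, plus the 5 with the highest mean. For the difference of effects the overlap condition was dropped, and regions on chromosome 18 were not named. List examples were picked after seeing values, and members, lists and tests were chosen with earlier results of these data known. Gene names are those of the closest start site in the deposited annotation and say nothing of a region's target. Cyp27a1 and others fall in the drug metabolism list by its letters Cyp2. No genome was used here, so motifs were not searched.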

Additional observations from a re-analysis of the deposited data

Results flagged for a closer look

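The effect of C26 cachexia differed from that of 8025 cachexia, by the interaction in the limma model, at 5 LINE-1 regions: As3mt, L1MB5 (1.63 on the log2 scale), Gpat3, Lx5c (-1.37), Dexi, L1MC4 (-1.27), Mir6348, Lx8 (-0.86) and Pnpla8, L1MA4 (-2.58). With library totals none of them passed the threshold. Of the 15 fits that left out 1 library, Dexi missed it in 13 (adjusted p up to 0.12), Mir6348 in 11 (up to 0.124) and As3mt in 9 (up to 0.0736).

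Among 91 groups of libraries examined at the named regions and for the LINE-1 share, 7 had 1 library far from the others by Dixon's test on log2 values at its 95% critical value, which chance gives in about 1 in 20 groups. In BALB/c PBS these were C26 PBS replicate 1 at Ap1m1, L1MB5 (25.2 tags, the lowest) and C26 PBS replicate 2 at Mir1943, L1MD2 (57.04, the highest). In C26 cachexia replicate 2 was the lowest at Sftpa1, Lx8 (22.1) and at Pnpt1, L1_Mus3 (0), and replicate 3 at Pcdh20, Lx8 (0). In 8025 cachexia replicate 1 was the lowest at Serpina3n, L1MB5 (97) and replicate 3 at C330004P14Rik, Lx2B2 (1.26). Groups that do not overlap were a condition for naming each of these regions.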

How the results depend on the processing

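Calls of LINE-1 regions kept within 1.5 times in every setting run for C26 cachexia (802; without 1 library each, 626 to 759) and, apart from leaving out libraries, for 8025 cachexia (601) and C26 pre-cachexia (71). The strain count of 621 became 413 in NC26 against MC38 PBS only and 241 in C26 against 8025 PBS only, where fewer libraries were used. C26 and 8025 also lie in different library series. The NC26 tumor count of 6 became 3 with library totals, 2 without the library series, 2 in only the groups compared, and 0 without the shallowest library or by edgeR. The MC38 tumor count of 2 became 1 with library totals, a pseudocount of 0.5, only the groups compared or the replicate block, 0 without the series, and 7 by DESeq2. The count of 5 for the difference between C26 and 8025 became 0 with library totals, 2 with a pseudocount of 0.5 or the replicate block, 22 with a pseudocount of 5, 13 with only the groups compared, 8 without the shallowest library and 20 by DESeq2. The cause was not tested.

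Leaving out each library in turn gave 506 to 633 calls for strain, 28 to 71 for C26 pre-cachexia, 345 (without 8025 PBS replicate 2) to 505 for 8025 cachexia, 0 to 21 for NC26 tumor (without tumor replicates 1 and 2), 0 to 2 for MC38 tumor and 1 to 12 for the difference. The ratio of mean LINE-1 shares moved from 0.911 to 1.04 for strain, from 0.997 to 0.938 for C26 cachexia and from 1.03 to 0.999 for 8025 cachexia when tags in regions replaced all tags as the denominator. Of 57 named values, none reversed and 14 lost the threshold in at least 1 of their settings.

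Same-numbered libraries share only a number: the correlation of their deviations ran from -0.228 to 0.108, and in no comparison did every library correlate best with its own number. With the replicate as a block the strain count was 469, the C26 cachexia count 795 and the 8025 cachexia count 550. The depth of 3.47 M tags in NC26 tumor replicate 1 limits that comparison.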
